A study of Mus musculus with 50 samples.

Results

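The comparison of D2 ribosome immunoprecipitates (IP samples) with inputs after social defeat used 16 of the 50 libraries of the series, 10 IPs and 6 inputs. Its members were taken from the library labels: the D2 libraries of mice called resilient (Res) or susceptible (Sus), 5 IPs and 3 inputs from each outcome. All came from the nucleus accumbens (NAc) of RT; D2-Cre mice of the C57BL/6 strain, 8 to 12 weeks old. These mice carry the RiboTag (RT) allele, which adds an HA tag to the ribosomal protein *Rpl22* in cells with Cre, and a bacterial artificial chromosome transgene (line ER44) in which Cre follows the control regions of *Drd2*. Both outcome groups had met an aggressive CD1 male on up to 10 days, daily for 10 min by the sample labels and for 5 min by the methods, and were sorted by a social interaction test afterwards. Each library held RNA of 2 pooled mice (6 tissue punches). The IP is the RNA that an HA antibody brought down with tagged ribosomes, and the input is RNA of the supernatant left over from the same kind of homogenate. It therefore holds RNA of all NAc cells, D2 cells included. Libraries of other groups served for comparison: D2 libraries of undefeated control mice (5 IPs and 3 inputs), D1-IPs after defeat (9) and the inputs of the RT; D1-Cre line after defeat (6), which differ from the D2 line in the Cre transgene. Nothing in the labels says which libraries shared a defeat batch or a sequencing run. The paper counts 10 sequenced mice per outcome for the RT; D2-Cre line, which at 2 per pool are the mice of the 5 IPs. Inputs therefore probably came from the same pools as IPs, though the labels do not say which. The fits treated all libraries as independent, so p-values measure the spread between libraries.

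Most neurons of the NAc are medium spiny neurons (MSNs), which release GABA. D2-MSNs carry the dopamine D2 receptor, which lowers cyclic AMP through inhibitory G proteins, and an adenosine receptor, the product of *Adora2a*, which raises it, and they release enkephalin. D1-MSNs carry the D1 receptor and release dynorphin and substance P. *Drd2* is also expressed by the cholinergic interneurons of the striatum and in some glial cells, so Cre driven by it is not limited to MSNs. The comparison asks which transcripts the tagged ribosomes carried in excess of, or below, their share in the whole tissue of defeated mice.

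The sum of counts on genes, the depth behind every value below, was 24181887 to 31009626 in the IPs and 19215635 to 28179940 in the inputs. Reads that fall outside annotated exons, which include reads of introns, were given as a share of their sum with the counts on genes. That share was 13.7% ± 2.26 (SD, n = 10) for IPs, whereas for inputs it came to 26.0% ± 0.875 (SD, n = 6). The highest IP held 17.6% and the lowest input 25.0%, and the difference of means was the largest of all 8008 relabellings of the libraries (two-sided exact permutation test, p = 0.000125, the smallest that this design allows). Within the IPs, 3 libraries stood apart, with 17.1% (D2 Res 5), 15.4% (D2 Sus 2) and 17.6% (D2 Sus 5) against 11.1% to 13.5% in the other 7, and they also had the highest summed level of a list of long noncoding RNAs. For some results, but not all, the values without them are given as well. Genes of cortical glutamatergic neurons differed within both fractions, from 47.0 to 322 summed CPM in IPs and from 119 to 1015 in inputs, with D2 Sus 1 lowest of its fraction in both. Their part in the other results was not tested.

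**Figure D1:**
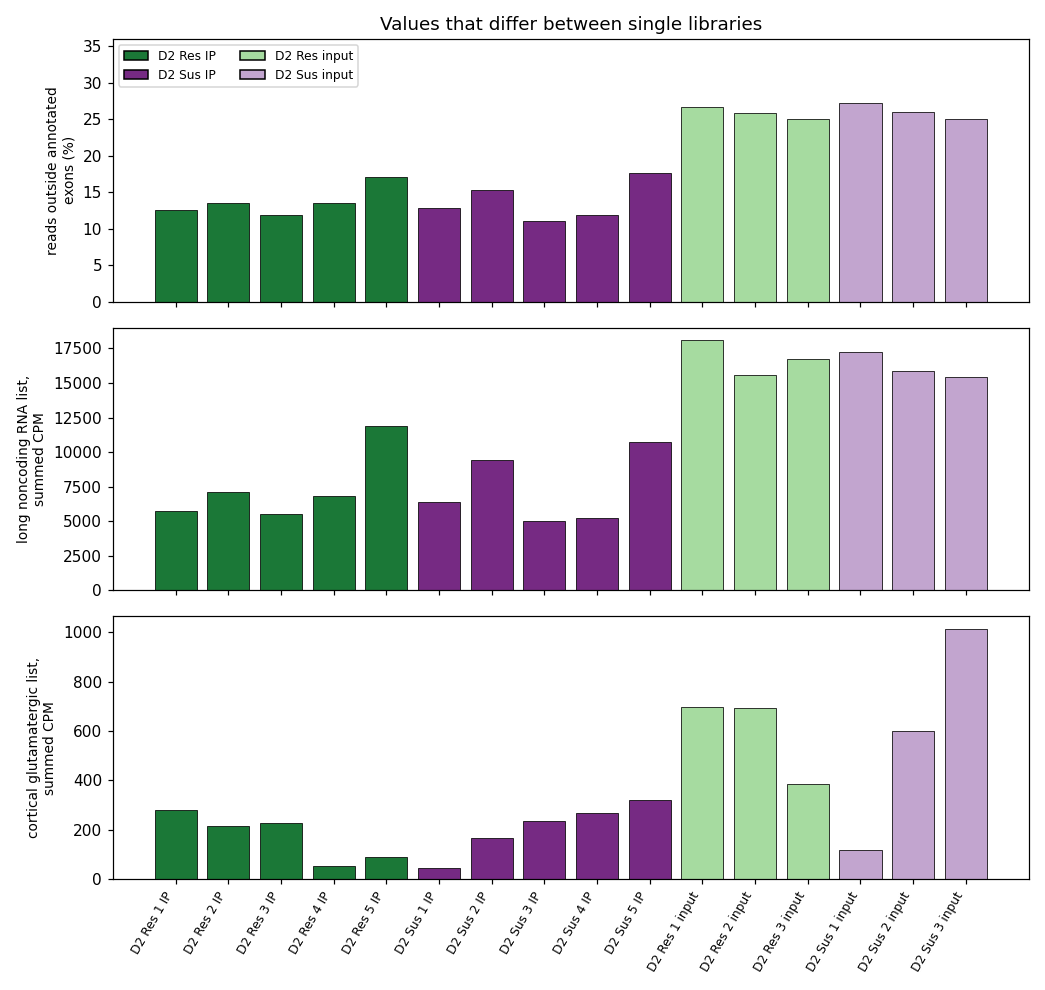
Each bar is 1 of the 16 libraries, colored by group. The panels show the percent of reads outside annotated exons, the summed CPM (counts per 1e6 counts on genes, TMM-scaled) of 13 long noncoding RNAs and that of 8 genes of cortical glutamatergic neurons. All 6 inputs are above all 10 IPs in the upper panels, D2 Res 5, D2 Sus 2 and D2 Sus 5 are the highest IPs there, and in the lower panel D2 Sus 1 is the lowest IP and the lowest input.

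IPs and inputs differed in a large share of the transcriptome. Of 14537 genes that passed the filter on low counts, 2038 were higher in IPs and 3955 were lower at an adjusted p under 0.05 and a fold change over 1.5 (edgeR's quasi-likelihood test with stress group as a covariate), which is 14% and 27.2% of the genes tested and 41.2% in either direction. Without the limit on fold change 5637 genes were higher (38.8%) and 5744 lower (39.5%). The split of the calls depended on the scaling: 34% of called genes were higher in IPs with TMM factors, 22.0% when counts were scaled by the sum on genes alone and 22.6% with upper quartile factors. *Rn45s* (the ribosomal RNA precursor, named after its values were seen), the most abundant entry of the table, held 9.78% to 13.2% of the counts on genes in inputs and 0.764% to 5.11% in IPs. By the sum on genes alone, 8.78% of genes tested were higher and 31.1% lower. With *Rn45s* left out and no scaling factors, 702 genes were higher and 5294 lower (4.8% and 36.2% of genes tested, 11.7% of called genes higher). The median log2 fold change of all genes thereby moved from -0.017 to -0.30. All fold changes below are on the TMM scale and are therefore relative to that median. Among called genes, the ranges of the 10 IPs and the 6 inputs did not overlap for 1860 of those higher and 2961 of those lower (12.8% and 20.4% of the genes tested). Without the 3 IPs that stood apart the calls were 2101 and 4098, and 1972 and 3867 of the genes called with all libraries were among them.

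**Figure D2:**
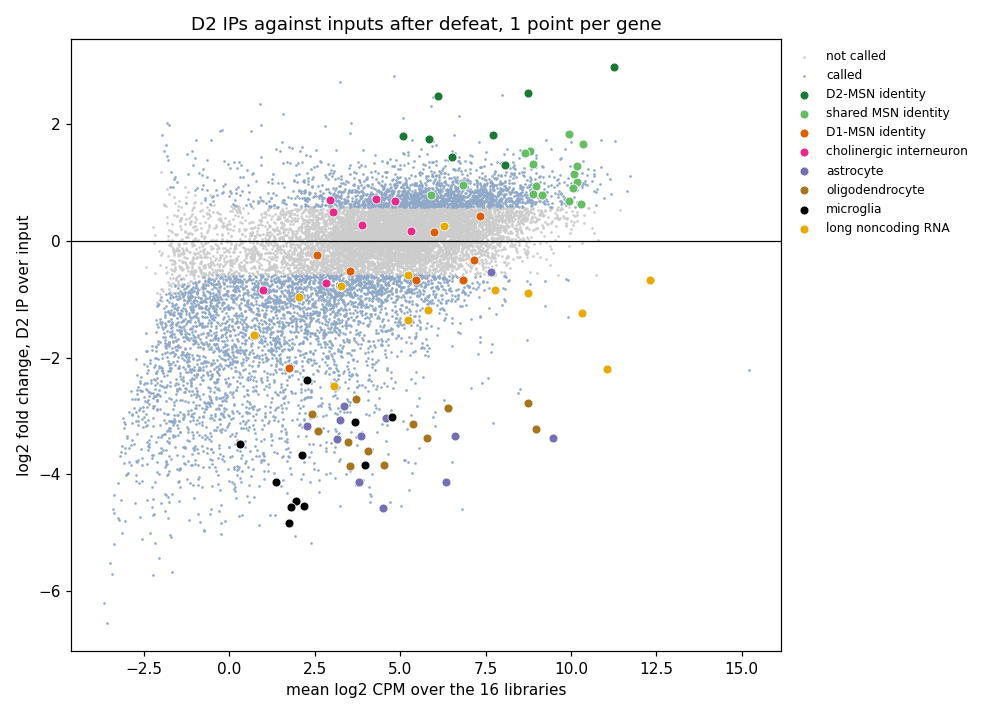
Each point is 1 of 14537 genes, with its mean log2 CPM over the 16 libraries on the x axis and its log2 fold change of D2 IP over input on the y axis, and 8 gene lists are marked in color. D2-MSN genes lie between 1.30 and 2.99, among many genes on no list, while the oligodendrocyte genes lie between -3.86 and -2.71 and the microglial genes between -4.83 and -1.61.

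All 8 genes of a list of D2-MSN identity were higher in IPs, where the background was 14%, and in none did the IPs overlap the inputs (12.8% of all tested genes were called higher without overlap). Their median log2 fold change was 1.81, against -0.017 for all genes tested. *Drd2*, the D2 receptor itself, ranged from 300.4 to 388 CPM (median 338) in IPs and from 79.6 to 118 CPM (median 95.3) in inputs. The lowest IP was thus far above the highest input, and the log2 fold change was 1.82 ± 0.087 (SE), a 3.53-fold difference (adjusted p = 9.08e-13). In a comparison of IP with input, the share of an RNA that comes from tagged cells and the share bound to ribosomes cannot be told apart. *Penk*, the precursor of enkephalin, showed the widest gap of the list, with IPs from 4589 to 5818 CPM (median 5475) and inputs from 624 to 779.8 CPM (median 662). Its log2 fold change of 2.99 ± 0.061 was the largest of the called genes whose mean reached 50 counts and whose groups did not overlap (adjusted p = 1.82e-17). For *Adora2a*, which encodes that adenosine receptor, IPs ranged from 729 to 974 CPM (median 822) and inputs from 118 to 173 CPM (median 143) (2.53 ± 0.084). *Gpr6*, an orphan receptor that raises cyclic AMP, ranged from 105 to 155 CPM (median 131) compared with values from 19.6 to 26.9 CPM (median 23.5), a log2 fold change of 2.48 ± 0.083.

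The remaining D2-MSN genes differed less. *Sp9*, a transcription factor required for D2-MSN development, and *Gpr52*, another orphan receptor coupled to cyclic AMP, had log2 fold changes of 1.81 ± 0.070 and 1.75 ± 0.064. *Ptprm*, a receptor tyrosine phosphatase, reached 1.43 ± 0.052, and the kainate receptor subunit *Grik3* 1.30 ± 0.073, the lowest of the list. *Grik3* ranged from 328 to 466 CPM (median 373) in IPs and from 134 to 179 CPM (median 152) in inputs. In IPs the summed level of the 8 genes ran from 6328 to 7936 CPM (median 7402), whereas inputs held 1099 to 1345 CPM (median 1158).

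**Figure D3:**
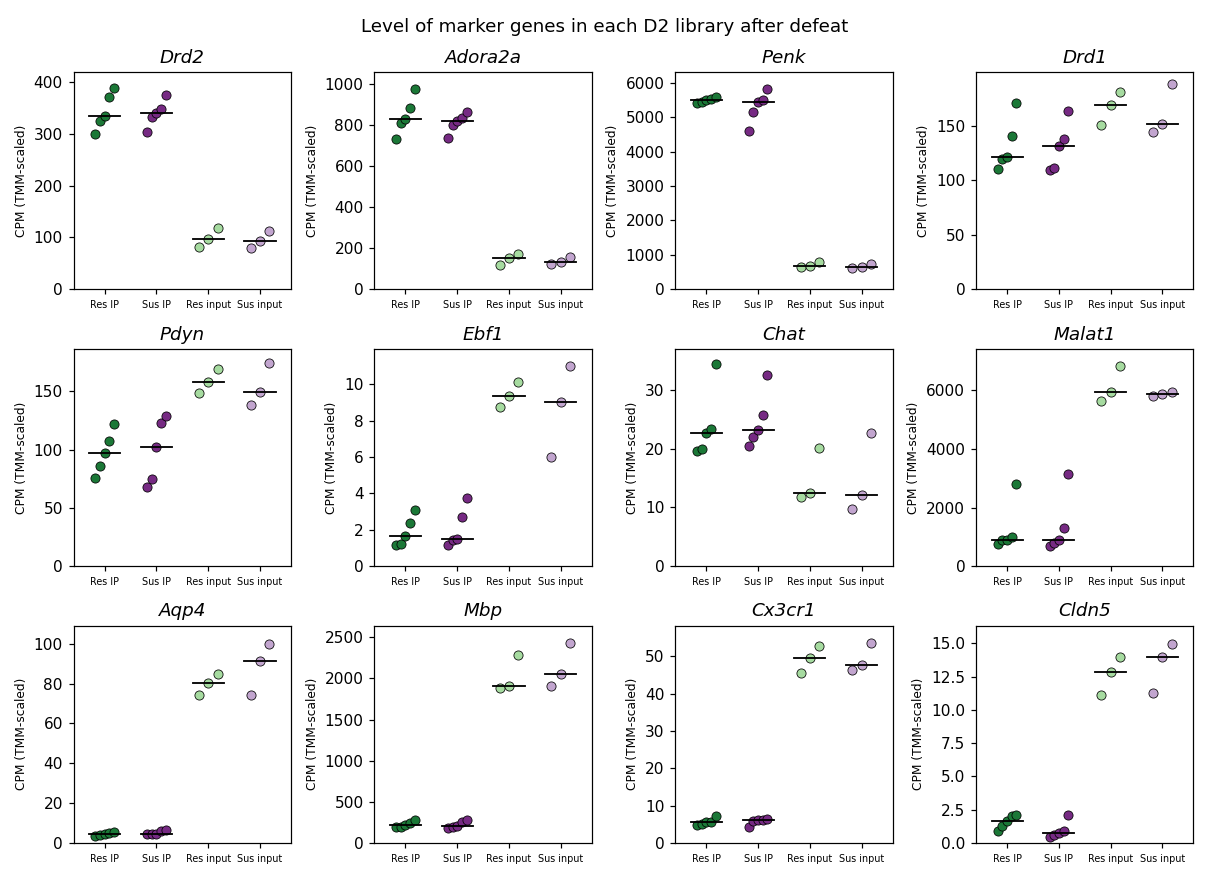
TMM-scaled CPM of 12 genes in each library (points) with the group median (line), in 5 Res IPs, 5 Sus IPs, 3 Res inputs and 3 Sus inputs; every y axis starts at 0. Drd2, Adora2a and Penk are higher in every IP than in any input, Aqp4, Mbp, Cx3cr1 and Cldn5 are lower in every IP, Drd1 and Chat overlap, and Malat1 is highest among IPs in 1 Res and 1 Sus library.

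Genes of D1-MSN identity did not move as a block. Of 8, none were called higher and 3 were called lower (background 27.2%), with a median log2 fold change of -0.42. With no scaling factors and *Rn45s* left out 5 were lower (62.5%, beside 36.2% of all genes). Summed levels were 435 to 662 CPM in IPs and 556 to 676 CPM in inputs. *Ebf1*, a transcription factor of D1-MSNs, was lowest relative to input, ranging from 1.17 to 3.72 CPM (median 1.56) in IPs and from 5.98 to 11.002 CPM (median 9.21) in inputs, and its log2 fold change was -2.17 ± 0.23 (adjusted p = 7.69e-08). The dynorphin precursor *Pdyn* fell by less. Its IPs ranged from 68.2 to 129 CPM (median 99.7) and its inputs from 138 to 174 CPM (median 154), without overlap (-0.67 ± 0.12, adjusted p = 7.73e-05). Without the 3 IPs that stood apart its value was -0.54, under the limit of 1.5-fold. *Sfxn1*, a mitochondrial serine transporter, was the third gene called lower (-0.66 ± 0.050). *Drd1* itself ranged from 110.002 to 171 CPM (median 126) in IPs and from 145 to 188 CPM (median 161) in inputs, so the groups overlapped, and its difference of -0.32 ± 0.097 passed the adjusted p (0.00571) but not the fold limit. *Isl1*, a transcription factor, behaved likewise with -0.51 ± 0.15. *Tac1*, the substance P precursor, differed in the other direction by 0.42 ± 0.096, also under the fold limit. The muscarinic receptor gene *Chrm4* (0.16 ± 0.097, adjusted p = 0.138) and *Eya1* (-0.25 ± 0.13, adjusted p = 0.101) did not pass the test.

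The 16 genes of a list shared by both MSN types were all called higher (background 14%), with a median of 0.99 and the lowest value, 0.63, for *Arpp21*. In IPs their summed level was 14636 to 16998 CPM against 6802 to 8432 CPM in inputs. *Ppp1r1b* (DARPP-32), the phosphatase inhibitor that integrates dopamine and glutamate signals, ranged from 1707 to 2119 CPM (median 2061) in IPs and from 558 to 733 CPM (median 627) in inputs (1.66 ± 0.067). *Rgs9*, which shortens G protein signals at dopamine receptors, differed less (0.79 ± 0.058). The transcription factors *Foxp1* and *Bcl11b* stood at 1.54 and 1.32 on the log2 scale. With no scaling factors 14 of the 16 were called (87.5%, beside 8.78% of all genes), and 11 when *Rn45s* was left out as well (68.8%, beside 4.8%).

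Of 17 genes that act in dopamine signalling of D2-MSNs, several of them also on the lists above, 12 were called higher and none lower (median 0.91, backgrounds 14% and 27.2%). With no scaling factors and *Rn45s* left out 9 were higher and 2 lower (52.9% and 11.8%, beside 4.8% and 36.2% of all genes). The 12 called on the TMM scale were the receptors *Drd2* and *Adora2a*, the striatal stimulatory G protein *Gnal* (1.15), adenylyl cyclase *Adcy5* (0.91), the regulatory subunit of protein kinase A *Prkar2b* (0.95), *Ppp1r1b*, the phosphatase subunit *Ppp1ca* (0.73), the phosphodiesterases *Pde10a* (1.01) and *Pde1b* (1.29), and *Rgs9*, *Rgs4* (0.64) and *Gnb5* (1.57), the last of which partners *Rgs9*. Of the inhibitory G protein genes, through which D2 receptors signal, *Gnao1* (0.26) stayed below the fold limit, as did the catalytic kinase subunit *Prkaca* (0.11), and *Gnai1* (0.18, adjusted p = 0.135) did not pass the test. *Drd3*, the other D2-type receptor of the NAc, ranged from 2.25 to 7.42 CPM (median 4.49) in IPs and from 5.20 to 8.00 CPM (median 6.51) in inputs. Its value of -0.51 ± 0.16 (adjusted p = 0.00825) was under the fold limit but passed it without the 3 IPs that stood apart (-0.64). *Arrb2*, a beta-arrestin, had -0.43 and was not called.

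The Cre transgene is built from the region around *Drd2*, so 6 genes next to it on mouse chromosome 9 were read as well (GRCm38). *Drd2* spans 49340627 to 49408177 on the plus strand, *Ankk1* lies 7.02 kb beyond its end and *Ttc12* 28.8 kb beyond it. Both were higher in IPs. *Ttc12* ranged from 12.1 to 17.7 CPM (median 14.1) in IPs and from 5.01 to 10.5 CPM (median 7.91) in inputs, without overlap (0.86 ± 0.12, adjusted p = 3.73e-06). With no scaling factors and *Rn45s* left out its value was 0.58, just under the fold limit. *Ankk1* was near the lower limit of detection, with at most 25 counts in any IP, ranging from 0.252 to 0.981 CPM (median 0.600) compared with values from 0.1000 to 0.557 CPM (median 0.253) (1.15 ± 0.39, adjusted p = 0.0113). *Ncam1*, a neural adhesion molecule 94.0 kb away, had 0.55 ± 0.058, a difference that passed the adjusted p (7.68e-08) but not the fold limit. On the other side, *Tmprss5* (223 kb away) was lower in IPs (-1.23 ± 0.31) with at most 17 counts in any IP, and *Zw10* (262 kb) and *Usp28* (298 kb) had -0.052 ± 0.067 and -0.0062 ± 0.072 and did not pass the test. Whether the transgene adds reads to any of these genes was not tested.

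Markers of other neurons differed between the cholinergic list, which had members in both directions, and the GABAergic and cortical lists, which were lower. Cholinergic interneurons make up a small part of NAc neurons and express *Drd2*. *Chat*, which makes acetylcholine, ranged from 19.7 to 34.4 CPM (median 23.0) in IPs and from 9.70 to 22.7 CPM (median 12.3) in inputs, and 2 inputs (D2 Res 3 and D2 Sus 1) reached into the range of the IPs. Its log2 fold change was 0.72 ± 0.18 (adjusted p = 0.00107). *Tacr1*, the substance P receptor, was also called higher, at 0.69 ± 0.11. The vesicular acetylcholine transporter *Slc18a3*, which lies within the bounds of *Chat* on chromosome 14 on the same strand, had 0.49 ± 0.23 (adjusted p = 0.0561), the choline transporter *Slc5a7* 0.17 ± 0.18 (adjusted p = 0.406) and the glutamate transporter *Slc17a8* 0.27 ± 0.097, none of them called. *Slc18a3* passed both limits without the input D2 Res 3 (0.60) or D2 Sus 1 (0.76). *Lhx8* (-0.72 ± 0.31) and *Zic4* (-0.84 ± 0.18), both transcription factors, were called lower. The call of *Lhx8* was lost without any 1 of 7 libraries, among them the input D2 Sus 1, when its value was -0.41. In all, 3 of 8 were called higher and 2 lower (backgrounds 14% and 27.2%), with a median of 0.38 and summed levels of 104 to 194 CPM in IPs and 73.1 to 175 CPM in inputs. No member was called higher when counts were scaled by their sum alone (background 8.78%).

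GABAergic interneuron genes were lower in IPs in 9 of 10 cases (background 27.2%), with a median of -1.29 and summed levels of 158 to 224 CPM in IPs against 325 to 368 CPM in inputs. *Sst*, the somatostatin gene, ranged from 35.8 to 63.8 CPM (median 51.4) in IPs and from 92.8 to 137 CPM (median 123) in inputs (-1.24 ± 0.11). The calcium buffer *Pvalb* ranged from 1.80 to 5.57 CPM (median 2.91) and from 6.35 to 10.8 CPM (median 7.16) (-1.34 ± 0.19), and *Npy*, which encodes neuropeptide Y, overlapped between the groups (-0.80 ± 0.16). *Vip* had the lowest value, -3.87, and *Calb2* (-0.64) did not pass the test. Of 8 cortical glutamatergic genes 7 were called lower (median -1.46), but their levels ranged widely in both fractions. *Slc17a7*, the vesicular glutamate transporter of cortical neurons, ran from 14.1 to 243 CPM (median 164) in IPs and from 51.5 to 822 CPM (median 504) in inputs, and the groups overlapped (-1.73 ± 0.50, adjusted p = 0.00431). *Neurod2* (-1.44 ± 0.47) passed and *Neurod6* (-1.21 ± 0.55, adjusted p = 0.0521) did not. *Neurod6* was called without any 1 of 4 libraries, and all 8 were called with RLE, upper quartile or no scaling factors, 6 with DESeq2 and 5 without the 3 IPs that stood apart. Cortical neurons border the NAc in the tissue, and how much of the spread follows from the punches was not tested.

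Genes common to neurons were higher in IPs. Of 11 pan-neuronal genes and genes of GABA synthesis, all passed the adjusted p in the direction of IPs (background 38.8%) and 6 the fold limit as well (background 14%, median 0.73). With no scaling factors and *Rn45s* left out 3 passed both (27.3%, beside 4.8% of all genes). *Rbfox3* (NeuN) ranged from 433 to 517 CPM (median 460.3) in IPs and from 192 to 273 CPM (median 251) in inputs (0.96 ± 0.064). The GABA genes *Slc32a1* (1.17), *Gad1* (0.86) and *Gad2* (0.73) were called. The synaptic genes *Snap25* (0.56 ± 0.082) and *Syt1* (0.31 ± 0.048) were below the fold limit.

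Glial and vascular genes made up the lower edge of the comparison. All 12 oligodendrocyte genes, all 12 microglial genes, all 14 endothelial and mural genes and all 4 genes of oligodendrocyte precursors were called lower, as were 11 of 12 astrocyte genes (background 27.2%). The median log2 fold changes were -3.24, -3.75, -3.49, -2.65 and -3.33. The summed level in IPs was 12.3% of that in inputs for astrocytes, 11.9% for oligodendrocytes, 13.4% for their precursors, 8.74% for microglia and 9.80% for vascular cells, and no member of these lists was at 0 in every IP. *Aqp4*, the astrocytic water channel, ranged from 3.50 to 6.63 CPM (median 4.62) in IPs and from 74.0 to 100.1 CPM (median 82.5) in inputs (-4.13 ± 0.094). *Gfap*, the astrocytic filament protein, ranged from 2.15 to 6.58 CPM (median 3.63) in IPs and from 33.7 to 47.7 CPM (median 39.4) in inputs (-3.39 ± 0.17), and the glutamate transporter *Slc1a3* had -4.12 ± 0.098. *Slc4a4*, a bicarbonate cotransporter, was the astrocyte gene that stayed under the fold limit (-0.54).

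*Mbp*, myelin basic protein, ranged from 177 to 279 CPM (median 210.2) in IPs and from 1880.3 to 2428 CPM (median 1981) in inputs (-3.22 ± 0.10). *Mog*, on the outer face of myelin, had -3.45 ± 0.15. Among precursor genes, the growth factor receptor *Pdgfra* and the orphan receptor *Gpr17* had -3.28 ± 0.13 and -3.35 ± 0.15, and the proteoglycan *Cspg4*, which pericytes also carry, -2.03 ± 0.14. The microglial receptor *Cx3cr1* ranged from 4.16 to 7.27 CPM (median 5.78) in IPs compared with values from 45.4 to 53.6 CPM (median 48.7) in inputs (-3.11 ± 0.084). The purinergic receptor *P2ry12* (-4.54 ± 0.15) and *Tmem119* (-4.12 ± 0.14), both specific to microglia, had lower values. For vessels, the tight junction gene *Cldn5* ranged from 0.449 to 2.12 CPM (median 1.08) and from 11.1 to 14.98 CPM (median 13.4) (-3.38 ± 0.23), and *Pecam1* and *Flt1* had -3.49 ± 0.22 and -3.46 ± 0.14. Of 8 ependymal and choroid plexus genes 4 passed the filter. *Foxj1*, which drives the formation of motile cilia, was lower (-1.22 ± 0.17), as was *Otx2* (-2.50 ± 0.36, at most 9 counts in any IP), *Ccdc153* did not pass the test (-0.53 ± 0.41), and *Kl* (klotho) went the other way, ranging from 13.6 to 17.4 CPM (median 15.6) in IPs and from 5.72 to 8.58 CPM (median 7.04) in inputs (1.14 ± 0.087).

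The 10 with the lowest fold change, among called genes whose mean reached 50 counts and whose groups did not overlap, were *Ctss*, *Slc39a12*, *Ly6a*, *Cd53*, *Sod3*, *Cd9*, *Agt*, *Tyrobp*, *C1qc* and *Abcc9*. *Ctss*, the lysosomal protease cathepsin S, ranged from 41.4 to 54.6 CPM (median 49.8) in inputs and from 0.854 to 2.38 CPM (median 1.24) in IPs, which is 36.1-fold lower (-5.17 ± 0.13, adjusted p = 1.64e-16). *Cd53*, a leukocyte tetraspanin (-4.97 ± 0.28), *Tyrobp*, the adaptor of microglial receptors (-4.83 ± 0.20), and the complement gene *C1qc* (-4.83 ± 0.15) belong, as background, to microglia. The zinc transporter *Slc39a12* (-5.06 ± 0.17) and *Agt*, angiotensinogen (-4.87 ± 0.58), are astrocytic. *Agt* ranged from 2.61 to 55.8 CPM (median 11.8) in inputs and from 0.107 to 1.49 CPM (median 0.606) in IPs. *Ly6a* (-5.02 ± 0.33) and *Abcc9*, a subunit of potassium channels in mural cells (-4.80 ± 0.25), are vascular. *Sod3*, the extracellular superoxide dismutase, and the tetraspanin *Cd9* had -4.96 ± 0.34 and -4.87 ± 0.12. Several were near the lower limit of detection in IPs, so the order of the 10 is uncertain. The highest IP held 18 counts of *Ly6a*, 15 of *Sod3*, 13 of *Cd53* and of *Abcc9*, and 10 of *Tyrobp*.

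At the upper end, 3 of the 10 genes chosen by the same rule were the D2-MSN genes *Penk*, *Adora2a* and *Gpr6*. The other 7 were on no list. *Nedd9*, a scaffold of focal adhesions, was 7.08-fold higher in IPs, ranging from 49.0 to 75.6 CPM (median 56.8) compared with values from 6.496 to 9.70 CPM (median 8.46) (2.82 ± 0.11). *Upb1*, an enzyme of pyrimidine breakdown, ranged from 13.2 to 30.0 CPM (median 19.4) in IPs and from 2.37 to 3.72 CPM (median 3.00) in inputs (2.72 ± 0.16). *Aftph*, which takes part in clathrin trafficking, ranged from 432 to 570.0 CPM (median 478) in IPs and from 80.7 to 90.2 CPM (median 85.5) in inputs (2.50 ± 0.063). *P2ry1*, a receptor for ADP, had 2.46 ± 0.12, and the heat shock factor *Hsf2* 2.31 ± 0.075, with values from 89.98 to 129.7 CPM (median 109) in IPs and from 20.4 to 24.2 CPM (median 21.5) in inputs. The glutathione peroxidase *Gpx6* (2.35 ± 0.24) and *Ccdc42* (2.18 ± 0.16) were weakly expressed, with IP medians of 3.40 and 5.17 CPM. All 7 were above input in the D1 line after defeat too. Their log2 fold changes there were 2.33 for *Nedd9*, 1.99 for *Aftph*, 1.83 for *Hsf2*, 1.48 for *Ccdc42*, 1.02 for *Upb1*, 0.88 for *P2ry1* and 0.61 for *Gpx6*. By edgeR's interaction test between the lines, *Gpx6* (1.74 ± 0.37), *Upb1* (1.69 ± 0.21) and *P2ry1* (1.58 ± 0.16) were higher in D2 past both limits. In that test *Aftph* (0.51), *Nedd9* (0.49) and *Hsf2* (0.49) passed only the adjusted p, and *Ccdc42* (0.70, adjusted p = 0.0721) did not pass.

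Of 13 long noncoding RNAs on a list, 11 were called lower and none higher (background 27.2% and 14%), with a median of -0.96. The 14th, Cyrano, was not analysed here. *Malat1*, a nuclear RNA that is not translated, ranged from 699 to 3141 CPM (median 886) in IPs and from 5628 to 6836 CPM (median 5903) in inputs (-2.19 ± 0.30, adjusted p = 2.19e-06). The 3 IPs that stood apart held 2802 (D2 Res 5), 1286 (D2 Sus 2) and 3141 CPM (D2 Sus 5) of it, against 699 to 1002 CPM in the other 7. Summed over the list, IPs held 4993 to 11868 CPM and inputs 15445 to 18099.5 CPM. Without these 3 libraries 11 of 13 were again called lower and the median was -1.20.

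*Mirg*, a host of microRNAs in the imprinted *Dlk1-Dio3* region, had the lowest value (-2.48 ± 0.13), followed by *Malat1*, *Rmst* (-1.61 ± 0.30) and the small nucleolar RNA host *Gas5* (-1.36 ± 0.10), a transcript known to associate with ribosomes. *Neat1*, the scaffold of paraspeckles, ranged from 25.3 to 77.8 CPM (median 40.4) in IPs and from 76.1 to 111 CPM (median 100.2) in inputs (-1.19 ± 0.19). *Meg3*, of the same imprinted region as *Mirg*, ranged from 3015 to 6995 CPM (median 4167) in IPs and from 6061 to 7745 CPM (median 7056) in inputs (-0.67 ± 0.16). *Rian* of that region had -0.88 ± 0.096. *Snhg11* (-1.23 ± 0.12), *Snhg1* (-0.96 ± 0.12), *Miat* (-0.84 ± 0.18) and *Pvt1* (-0.76 ± 0.12) were also called. *Dlx6os1* (-0.58 ± 0.057) was under the fold limit but passed it without any 1 of 7 libraries, and *Kcnq1ot1* (0.25 ± 0.21, adjusted p = 0.277) did not pass the test; without the 3 IPs its value was -0.11. Of 497 tested genes annotated as long noncoding, 51.5% were lower and 3.82% higher (median -0.65), while of 13700 protein coding genes 25.9% were lower and 14.5% higher (median 0.012). These classes came from a match by symbol and are not exact. *Zswim6* (0.87) and *Cct6a* (0.68), symbols of protein coding genes, were matched to processed transcripts and counted among the long noncoding genes called higher. Of 54 entries annotated as microRNAs, which in poly-A libraries stand for reads of their host transcripts, 68.5% were lower.

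The next lists concern the translation and energy machinery. *Rpl22*, which carries the tag, ranged from 27.6 to 38.6 CPM (median 35.4) in IPs and from 45.6 to 52.5 CPM (median 51.1) in inputs, without overlap (-0.51 ± 0.058, adjusted p = 1.88e-07), under the fold limit. Of 82 cytosolic ribosomal protein genes tested, 24 were called lower (29.3%, near the background of 27.2%) and none higher, with a median of -0.46. By the adjusted p alone 57 of the 82 were lower and 10 higher, beside 39.5% and 38.8% of all genes tested. The count depended on the scaling: 42 were lower (51.2%, beside 31.1% of all genes) with counts scaled by their sum alone, 41 (50%, beside 30.8%) with upper quartile factors and 49 (59.8%, beside 36.2%) with *Rn45s* left out as well. *Rps29* (-1.61), *Rps12* (-1.40), *Rps28* (-1.20) and *Rpl32* (-1.15) had the lowest values, whereas *Rpl7* (0.47) and *Fau* (0.43 ± 0.084) were among those higher by the adjusted p. *Rpl10* and *Rpl10a* had -0.51 ± 0.067 and -0.15 ± 0.055. The genes of this family have many processed pseudogenes of near identical sequence, and HTSeq by default counts no read that fits several places, so these values are uncertain. Of 77 nuclear-encoded genes of oxidative phosphorylation, 18 were higher (23.4%, background 14%) and 3 lower, with a median of 0.30. With no scaling factors and *Rn45s* left out 4 were higher and 8 lower (5.19% and 10.4%, beside 4.8% and 36.2% of all genes). The ATP synthase subunits *Atp5a1* (1.08 ± 0.044), *Atp5b* (0.85 ± 0.041) and *Atp5c1* (0.61 ± 0.043) were called. The 3 lower genes, *Cox4i2* (-4.10 ± 0.41), *Cox6a2* (-2.77 ± 0.29) and *Cox6b2* (-1.77 ± 0.43), encode isoforms of cytochrome oxidase subunits that are best known from lung, muscle and testis, and none exceeded 20 counts in an IP. The 13 genes of the mitochondrial genome were not analysed here.

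Some mRNAs are known to be carried into dendrites. Of 12 genes of the postsynaptic side 4 were higher and 1 lower (median 0.48), which is 33.3% and 8.33% beside backgrounds of 14% and 27.2%. With counts scaled by their sum alone 3 were higher and 2 lower (25% and 16.7%, beside 8.78% and 31.1% of all genes). With *Rn45s* left out as well 1 was higher and 2 lower (8.33% and 16.7%, beside 4.8% and 36.2%). *Camk2a*, whose mRNA is dendritic, ranged from 2672 to 3189 CPM (median 2877) in IPs and from 1185 to 2135 CPM (median 1714) in inputs (0.81 ± 0.098). *Ddn* (dendrin) overlapped (0.44 ± 0.096). *Shank1*, a scaffold of the postsynaptic density, was called lower, ranging from 148 to 297 CPM (median 171) in IPs and from 319 to 531 CPM (median 407) in inputs (-1.10 ± 0.14), while *Shank3* was at 0.037 (adjusted p = 0.555).

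Immediate early genes report recent activity of a neuron. Of 10, 6 were called higher in IPs and 2 lower (median 0.70, backgrounds 14% and 27.2%). With counts scaled by their sum alone 4 were higher (40%, beside 8.78% of all genes), and 2 with *Rn45s* left out as well (20%, beside 4.8%). *Junb* ranged from 64.0 to 109 CPM (median 80.4) in IPs and from 24.6 to 49.2 CPM (median 31.2) in inputs, without overlap (1.26 ± 0.14), and *Egr1* had 1.35. *Fosb* had 0.73 ± 0.12. *Fos* did not pass the test, from 3.19 to 23.1 CPM (median 8.84) in IPs and from 4.30 to 15.7 CPM (median 5.72) in inputs (0.40 ± 0.37, adjusted p = 0.335). *Npas4* (-0.68 ± 0.19) and *Ier2* (-0.84 ± 0.27) were lower, and both overlapped between the groups. The first was no longer called without 1 input (D2 Sus 3), when its value was -0.57. Genes that respond to glucocorticoids, the stress hormones of the adrenal, were divided as well, with 3 of 10 higher, 2 lower (backgrounds 14% and 27.2%) and a median of 0.39. With counts scaled by their sum alone 2 were higher (20%, beside 8.78%), and 1 with *Rn45s* left out as well (10%, beside 4.8%). *Fkbp5*, a chaperone that dampens the glucocorticoid receptor, ranged from 75.9 to 85.9 CPM (median 82.4) in IPs and from 33.4 to 42.7 CPM (median 37.7) in inputs (1.11 ± 0.050). The lower genes were *Tsc22d3* (GILZ), with -0.85 ± 0.083, and the transcription factor *Zbtb16*, with -0.95 ± 0.15. *Sgk1*, a kinase, was at 0.25 ± 0.065 and under the fold limit.

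**Figure D4:**
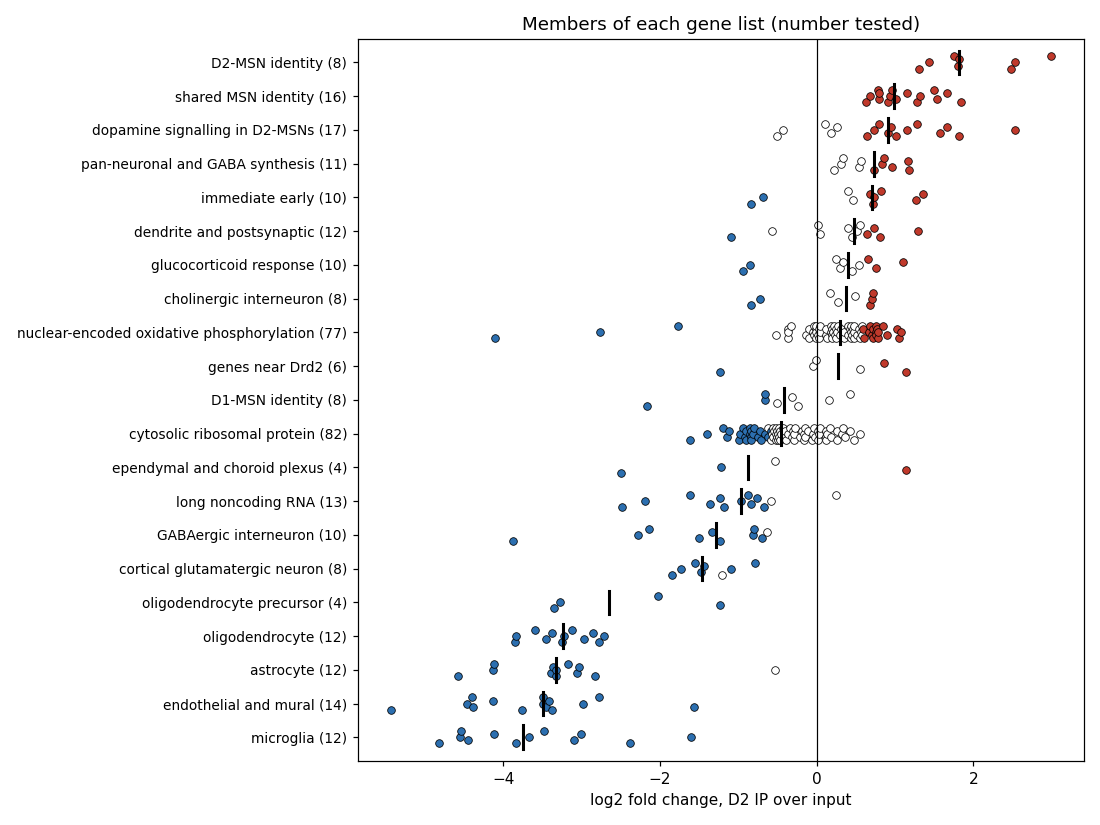
Each point is a gene, placed by its log2 fold change of D2 IP over input on the x axis, with 1 row per gene list and the number of genes tested in brackets; red points were called higher, blue points called lower and open points not called, and the black bar is the list's median. The medians run from -3.75 for microglia to 1.81 for D2-MSN identity, and the cholinergic, glucocorticoid and immediate early lists hold both red and blue points.

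The enrichment was then compared between the D2 and the D1 line after defeat, which share no library. Over 15239 genes the log2 fold changes of IP over input in the 2 lines had a Pearson's r of 0.912 across genes, which are not independent replicates. The difference of the enrichments passed the adjusted p and the fold limit for 279 genes higher in D2 and 587 lower in D2 (1.83% and 3.85% of those tested). All 8 D2-MSN genes were among the first, with a median difference of 1.49 on the log2 scale, and 7 of 8 D1-MSN genes among the second (median -0.99), *Eya1* being the exception (-0.42 ± 0.18, adjusted p = 0.115). On a scale common to both lines, *Drd2* ranged from 302 to 391 CPM (median 338) in D2-IPs and from 79.8 to 109 CPM (median 95.3) in D1-IPs, and *Drd1* from 111 to 172 CPM (median 126) in D2-IPs and from 289 to 357 CPM (median 329) in D1-IPs. The IPs of the lines did not overlap for either receptor. The inputs of the lines did. *Penk* showed a difference of 1.56 ± 0.10 (adjusted p = 7.72e-12), yet the D1-IPs too held more of it than their inputs, from 1704 to 2286 CPM (median 2065) compared with values from 562 to 841 CPM (median 798).

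By adjusted p the clearest differences toward D2 were *Gpr52* (1.5003 ± 0.089), *Ptprm* (1.33 ± 0.081), *Nt5e* (1.38 ± 0.089), *Penk* and *Gpr6* (1.58 ± 0.11). *Nt5e*, the ectoenzyme that makes adenosine, the ligand of the *Adora2a* receptor, ranged from 51.0 to 64.5 CPM (median 59.5) in D2-IPs, from 21.4 to 27.9 CPM (median 23.6) in D1-IPs and from 12.6 to 14.8 CPM (median 13.4) in D2 inputs. Toward D1 they were *Pdyn* (-2.22 ± 0.16), the zinc transporter *Tmem163* (-1.88 ± 0.15), *Igfbp4*, which binds insulin-like growth factors (-1.39 ± 0.11), *Aldh1a1*, which makes retinoic acid (-2.19 ± 0.18), and the neurexin ligand *Nxph1* (-0.997 ± 0.085). *Pdyn* ranged from 68.9 to 129 CPM (median 99.5) in D2-IPs and from 410.0 to 582 CPM (median 496) in D1-IPs. *Aldh1a1* was low in the IPs of both lines, from 0.771 to 1.75 CPM (median 1.39) and from 4.80 to 7.68 CPM (median 5.78), compared with values from 13.9 to 19.2 CPM (median 16.9) in D2 inputs. *Ebf1*, among D1-MSN genes, differed by -2.40 ± 0.27 and *Sfxn1* by -0.65 ± 0.061.

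Of 8 cholinergic genes, 6 were higher in D2 (background 1.83%), among them by 3.56 ± 0.46 for *Slc18a3*, 3.26 ± 0.33 for *Chat*, 3.15 ± 0.32 for *Slc5a7*, 1.82 ± 0.17 for *Tacr1* and 1.01 ± 0.22 for *Slc17a8*. *Chat* ranged from 19.7 to 34.6 CPM (median 22.9) in D2-IPs and from 1.57 to 6.72 CPM (median 2.11) in D1-IPs, without overlap, and ranged from 8.41 to 18.2 CPM (median 16.4) in D1 inputs. Its log2 fold change of IP over input in the D1 line was -2.54 ± 0.24. *Lhx8* (0.41 ± 0.43) and *Zic4* (0.44 ± 0.26) did not differ past the threshold. Among other lists (backgrounds 1.83% higher and 3.85% lower), no astrocyte gene was higher and 2 of 12 were lower in D2. Oligodendrocyte genes were lower in 3 of 12 cases. Microglial genes were higher in 1 of 12 cases and vascular genes in 1 of 14. GABAergic interneuron genes were higher in 1 of 10 cases and lower in 3. Higher in D2 were also 4 of 13 long noncoding RNAs and 3 of 16 shared MSN genes. The summed long noncoding level was highest in the 3 D2-IPs that stood apart, and their part in these calls was not tested. None of 83 ribosomal protein genes was called. Cortical glutamatergic genes were lower in D2 in 4 of 8 cases (background 3.85%, median -2.08), and their level varied widely within each fraction. Without the 3 D2-IPs that stood apart, 187 genes were higher and 662 lower in D2, of which 173 and 554 had been called with them.

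**Figure D5:**
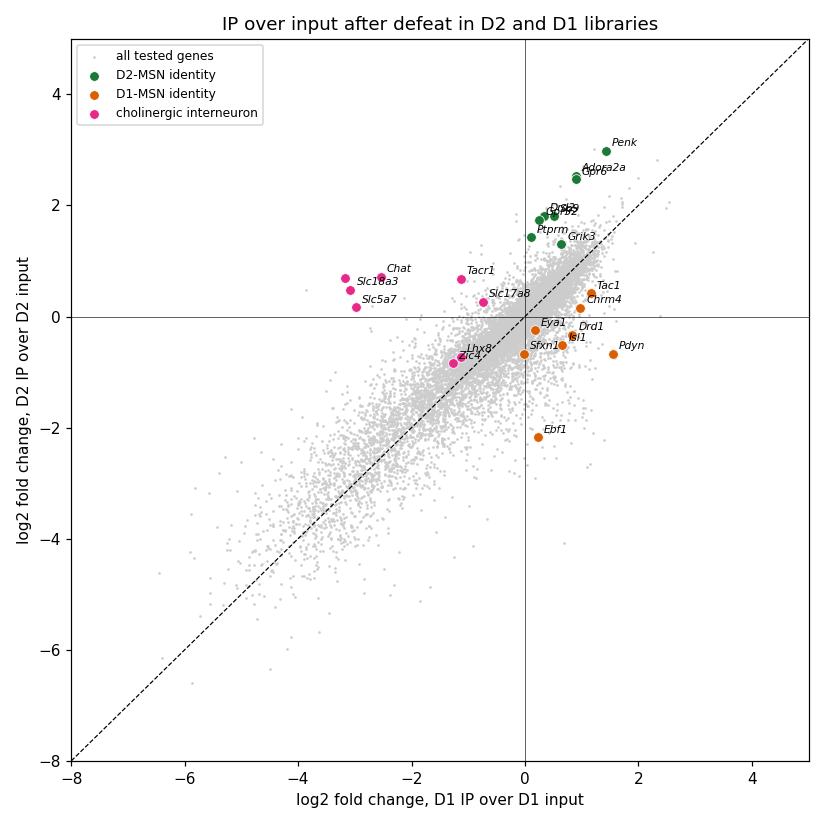
Each point is 1 of 15239 genes, with the log2 fold change of D1 IP over D1 input on the x axis and that of D2 IP over D2 input on the y axis, both after defeat; the dashed line marks equal values, and not every list member carries a label. D2-MSN genes lie above the line, all 8 D1-MSN genes lie below it with Ebf1 lowest at -2.17 in D2, and Chat, Slc18a3 and Slc5a7 lie far to the left, below -2.5 in D1 and above 0 in D2.

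Whether enrichment depended on the outcome of defeat was tested as the difference between Sus and Res of their IP over input ratios. No gene of 14905 passed an adjusted p under 0.05 in edgeR, and none in DESeq2. At an unadjusted p under 0.05 edgeR had 190 genes (1.27%) and DESeq2 183. That is below the share of 0.05 that uniform p-values would give, for a reason that was not tested. Without the 3 IPs that stood apart edgeR had 390 of 14900 genes at that limit, and again none by the adjusted p. The median SE of such a difference was 0.17 on the log2 scale, so small differences were not detectable with 3 inputs per outcome. *Drd2* had 1.80 ± 0.13 in Res and 1.85 ± 0.13 in Sus, a difference of 0.041 ± 0.17. For *Penk* the difference was 0.037 ± 0.11, for *Adora2a* 0.059 ± 0.16 and for *Chat* 0.046 ± 0.36. *Fkbp5* (0.070 ± 0.099) was measured with less error than *Fos* (-0.068 ± 0.76) or *Slc17a7* (0.32 ± 1.06). Across genes the 2 outcomes had an r of 0.960.

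The same test against undefeated mice, 5 IPs and 3 inputs of the same line, also gave no gene of 15079 past an adjusted p under 0.05 in edgeR or in DESeq2. The counts at an unadjusted p under 0.05 were 256 (1.7%) and 239, again below the share of uniform p-values. Without the 3 IPs that stood apart edgeR had 344 of 15049 genes at that limit and none by the adjusted p. *Drd2* enrichment differed between defeated and control mice by -0.0093 ± 0.15 and *Penk* by -0.047 ± 0.10. The immediate early genes had a median difference of -0.32, with *Junb* at -0.32 ± 0.23 and *Fos* at -0.47 ± 0.61, none with an unadjusted p under 0.05. Ribosomal protein genes had a median of -0.073 and long noncoding RNAs of 0.16. The r across genes was 0.964. *Pdgfra* and *Cldn5*, glial and vascular genes that were far below input in defeated mice, differed from controls by 0.60 ± 0.21 and 0.083 ± 0.37, which did not pass the adjusted p.

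Among protein coding genes the share called higher fell from 17.1% in the quartile of shortest exon length (312 to 2953 bases) to 11.3% in the longest (7033 bases and above), and the share called lower from 26.2% to 25.1%. By GC content of the exons, the share called higher rose from 10.9% in the lowest quartile (below 45.0%) to 16.7% in the highest (above 54.7%), and the share called lower from 23.5% to 29.3%. The medians of all 8 quartiles lay between -0.031 and 0.047. These are descriptions over genes that are not independent of each other.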

How the data were processed

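Libraries were poly-A selected and stranded, and were sequenced by the authors on a NextSeq500. Reads were trimmed with cutadapt, aligned with STAR to mm10 and counted per gene with HTSeq by the authors, who deposited raw counts; tool versions, annotation and strand setting are not given in the sources used here, so overlapping genes on opposite strands may share reads. The table held 24552 genes, 5 rows that name no gene (18.6% to 28.3% of reads in IPs and 37.1% to 40.0% in inputs, kept out of library sizes) and 48 library columns, of which 2 match no sample label and were not used.

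Counts were fitted with edgeR 4.0.16 (limma 3.58.1, R 4.3.3): filterByExpr (minimum count 10, total 15), TMM factors, quasi-likelihood test, stress group as covariate, Benjamini-Hochberg adjustment. Genes were called at an adjusted p under 0.05 and, for D2 IP against input and D2 against D1, a fold over 1.5. Differences between Sus and Res, defeated and control, and D2 and D1 were interaction terms. The depth, 19215635 to 31009626 counts per library, limits genes near 10 counts most. Replicates were compared by chi-square and none were duplicates. Gene positions and biotypes came from GENCODE by symbol on GRCm38 (98.7% of tested genes matched). The fit was tested on simulated data. DESeq2 1.42.0, other scalings, filters, fold limits and library subsets were alternatives.

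Members and gene lists were chosen with earlier results of these data known. Named genes were the 10 with the largest change in each direction (called, mean of at least 50 counts, no overlap), the first 3 tested members of each list and members called against the rest, all members of the D2-MSN, D1-MSN, *Drd2* neighbour, cholinergic and long noncoding lists, up to 5 genes per direction and difference test by adjusted p, and *Rpl22*. Other genes named, *Rn45s* among them, were chosen after their values were seen. Some genes that this rule names are not reported here. Figures were drawn with Matplotlib 3.10.9.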

Additional observations from a re-analysis of the deposited data

Results flagged for a closer look

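Within the 5 Res and the 5 Sus IPs, single libraries lay far from the other 4 (gap to the nearest over the whole range above Dixon's critical value) in 23 of 282 sets of values checked (8.16%), where chance gives about 1 in 20. D2 Res 5 was high for *Malat1* (2802 CPM, others 761 to 1002), *Meg3* (6995 CPM), *Gas5* (36.1 CPM), *Slc39a12* (1.95 CPM), *Chat* (34.4 CPM, others 19.7 to 23.4) and the summed long noncoding RNAs (11868 CPM). It was low for the summed shared MSN genes (15263 CPM, others 16583 to 16998) and dopamine signalling genes (11616 CPM, others 12579 to 12814). D2 Sus 5 was high for *Malat1* (3141 CPM), *Fos* (23.1 CPM, others 4.82 to 9.44) and the summed dendritic genes (13188 CPM), and low for *Sfxn1* (30.5 CPM) and *Snap25* (1341 CPM, others 1701 to 1748). D2 Res 5 and D2 Sus 5 are also the IPs with the largest share of reads outside exons, and its part in these values was not tested.

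D2 Sus 3 was high for *Chrm4* (90.6 CPM), *Ly6a* (0.668 CPM), *Snhg1* (4.19 CPM) and *Cox4i2* (0.148 CPM) and low for *Cx3cr1* (4.16 CPM, others 5.84 to 6.38). D2 Sus 2 was high for *Cldn5* (2.10 CPM) and *Rpl22* (38.1 CPM), D2 Sus 1 for *Ncam1* (601 CPM) and the summed genes near *Drd2* (665 CPM), which *Ncam1* dominates, and D2 Res 1 for *Gpx6* (4.90 CPM).

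Enrichment over input differed between the D2 and the D1 line (edgeR interaction test) in the 10 genes named for that comparison. They were chosen by the adjusted p of this same test, so that they differ follows from the choice. Toward D2 these were *Gpr52* (1.5003, adjusted p = 2.66e-12), *Ptprm* (1.33, adjusted p = 2.66e-12), *Nt5e* (1.38, adjusted p = 7.72e-12), *Penk* (1.56, adjusted p = 7.72e-12) and *Gpr6* (1.58, adjusted p = 5.08e-11), all as log2 differences. Toward D1 they were *Pdyn* (-2.22, adjusted p = 1.18e-10), *Tmem163* (-1.88, adjusted p = 6.75e-10), *Igfbp4* (-1.39, adjusted p = 6.75e-10), *Aldh1a1* (-2.19, adjusted p = 8.07e-10) and *Nxph1* (-0.997, adjusted p = 2.10e-09).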

How the results depend on the processing

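The number of genes higher in D2 IPs (2038) moved by over 1.5 times to 1276 with library size only, 1309 with upper quartile factors, 5637 with no limit on the fold change, 409 with a fold over 2 and 702 with library size only and *Rn45s* left out, the last chosen after seeing the data, as were the fits without 3 IPs and on paired libraries. Leaving out each library in turn gave 1922 to 2128 higher and 3887 to 4021 lower for IP against input, 216 to 329 and 534 to 659 for D2 against D1, and 0 to 0 for the other differences. Of genes called between D2 and D1, 32.2% were higher in D2, 41.4% with library size only and 22.0% without the 3 IPs. Summed list levels (log2 IP over input) on library size only were 2.50 for D2-MSN, 0.99 for shared MSN, 0.36 for genes near *Drd2*, -1.08 for GABAergic, 0.49 for pan-neuronal, 0.36 for glucocorticoid, 0.26 for dendritic, 0.96 for dopamine signalling, -0.47 for ribosomal protein and 0.41 for oxidative phosphorylation genes. *Usp28* (-0.0062) changed sign to 0.0055 with all genes of at least 1 count, 0.00778 in Sus libraries only and ranged from -0.056 to 0.026 with each library left out. *Kcnq1ot1* changed to -0.11 without the 3 IPs, and to -0.024 with library size only and *Rn45s* left out, where *Chrm4* (-0.12), *Slc5a7* (-0.11), *Slc17a8* (-0.00971) and *Sgk1* (-0.031) also changed sign. The causes were not tested beyond the construction of each setting. Same-numbered IPs and inputs deviated together with r from -0.33 to 0.64, and 2 of 6 IPs correlated best with the input of their own number. So few libraries cannot show whether equal numbers stand for the same pool. The main fits did not take the numbers as pairs. With the replicate block the calls were 2071 higher and 4107 lower, 214 and 640 for D2 against D1 and 0 for the other differences.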
